A study of Drosophila melanogaster with 4 samples.

Results

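Arm 3L is the left arm of the third chromosome of Drosophila melanogaster, and its H3K27me2 regions were taken as every entry placed on 3L in the 3 deposited lists of enriched regions. Replicate 1 held 2559 such regions of 12968 in all, replicate 2 held 2290 of 11483, and the authors' combined list for the replicate set held 3303 of 17184. The series profiled wild-type Oregon-R embryos aged 14 to 16 h by chromatin immunoprecipitation and sequencing (ChIP-seq), with 2 ChIP samples (antibody Ab24684) and 2 inputs that have no region list here. Whole embryos mix many cell types, so a mark in a few cells and a weak mark in all cells cannot be told apart, and no read counts come with the lists, which leaves the depth unknown. Positions follow FlyBase release 5 and are counted from the distal (telomeric) end at low coordinates to the proximal (centromeric) end at high coordinates. The gene table used here is of release 6, so regions were not placed on genes and no sequence is shown.

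H3K27me2 stands for a pair of methyl groups on lysine 27 of histone H3, placed there by Polycomb repressive complex 2. It is known as a broad mark of transcriptionally quiet euchromatin in fly cells, whereas trimethylation of the same lysine marks Polycomb target genes. The chromatin next to centromeres is known instead for methylation of lysine 9 of histone H3 and for the protein HP1. The release 5 arm sequence runs into this pericentromeric chromatin, and more of it is held in a separate scaffold called 3LHet.

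The regions covered 29.2% of the 24.5 Mb of 3L in replicate 1 and 23.1% in replicate 2, or 26.2% ± 4.29 (SD, n = 2). In total this was 7.16 Mb in replicate 1 and 5.67 Mb in replicate 2, while the combined list covered 11.5 Mb (46.7%). There were 104 regions per Mb in replicate 1 and 93.3 in replicate 2. Median width was 2107 bp and 2005.5 bp, and the widest regions spanned 19913 bp and 18039 bp. Neighbouring regions lay a median of 2612 bp apart in replicate 1 and 3240 bp apart in replicate 2, and 27.7% and 23.6% of these gaps were under 1 kb. Replicate 1 had 27 regions of at least 10 kb, replicate 2 had 7 and the combined list 143.

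Over its whole length, 3L had values close to those of the autosomal arms 2L and 3R, which covered 24.7% ± 4.18 and 27.3% ± 4.66 (SD, n = 2). The difference in covered share between 3L and the pooled length of 2L and 3R was -0.0759 percentage points in replicate 1 and 0.140 points in replicate 2, so the replicates did not share a direction. Median gaps on 2L were 2913 bp and 3629 bp, and on 3R 2546 bp and 3148 bp, with 3L between them in each replicate. A test across 2 replicates cannot go below p = 0.5 (two-sided exact sign-flip permutation), so none was run for any value given here.

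Windows of 100 kb showed a patchy arm. Over the 220 full windows distal of 22 Mb, the covered share ranged from 0% to 71.4% in replicate 1, with a median of 29.0%. In replicate 2 it ranged from 0% to 57.0%, with a median of 21.8%. A window held between 0 and 23 regions in each replicate, with medians of 11 and 10. The covered share followed the number of regions, with a Spearman's rho of 0.872 in replicate 1 and 0.933 in replicate 2 over the 245 full windows of the arm. The same windows gave a rho of 0.933 between the replicates, which share the genome sequence and were drawn from the same strain and stage. Replicate 1 was the higher of the replicates in 215 of the 245 windows (87.8% of them, against 86.8% of the 1189 windows of the 5 major arms).

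**Figure D1:**
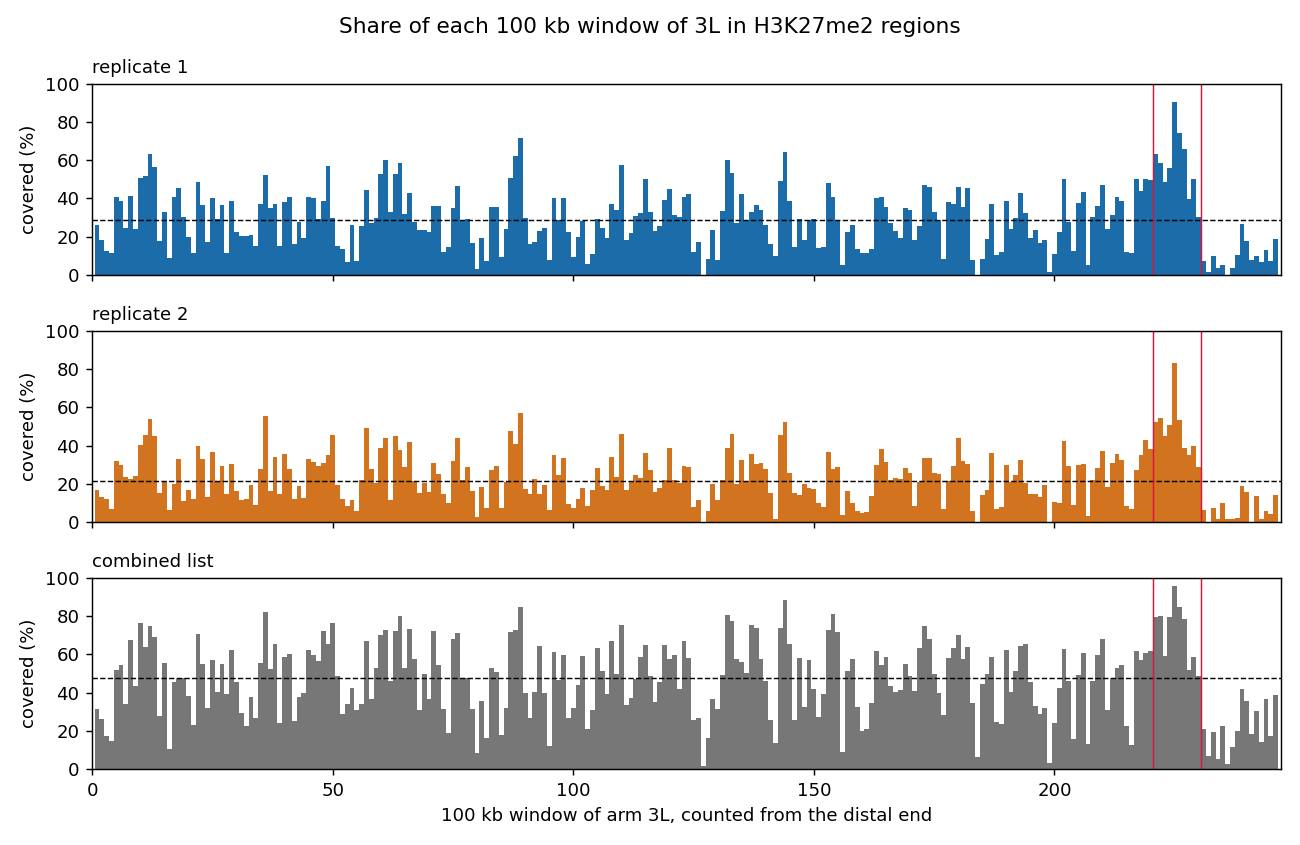
Percent of each 100 kb window of 3L that lay in regions of replicate 1, replicate 2 and the combined list, with windows in order from the distal end and a dashed line at the median of the full windows. Red lines enclose the windows from 22 to 23 Mb, where the share peaked at 90.2% and 83.3% in the replicates at 22.4 to 22.5 Mb. The last window before the second line had 30.5% and 29.0%, and the first window after it had 7.27% and 6.60%.

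Distal of 22 Mb, the most densely covered window was 8.8 to 8.9 Mb, with 71.4% in replicate 1 and 57.0% in replicate 2. The windows 1.1 to 1.2 Mb (63% and 53.7%), 14.3 to 14.4 Mb (64.2% and 52.4%), 3.5 to 3.6 Mb (52.1% and 55.7%) and 6.0 to 6.1 Mb (59.9% and 44.1%) came next by the mean of the replicates. These dense windows were built differently. From 1.1 to 1.2 Mb there were 12 regions in each replicate with high scores, whose median lay at percentile 91.4 of the replicate 1 list and 78.5 of the replicate 2 list. From 14.3 to 14.4 Mb there were 22 and 19 regions with median scores at percentiles 38.0 and 49.2.

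Neighbouring windows differed by a median of 9.91 percentage points in the mean of the replicates. The largest change between neighbouring windows was a rise at 14.2 Mb, and the largest fall, at 8.9 Mb, took the mean share from 64.2% to 23.54%. The covered shares of neighbouring windows had a rho of 0.430 in replicate 1 and 0.417 in replicate 2 over 244 pairs. At the sparse end, the windows 12.6 to 12.7 Mb and 18.3 to 18.4 Mb held no region in either replicate, although the combined list covered 1.72% and 6.43% of them. The window 19.8 to 19.9 Mb had 1.80% and 0%, 7.9 to 8.0 Mb had 3.17% and 2.79%, and 20.6 to 20.7 Mb had 5.27% and 3.34%.

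No list had a region in 17 stretches of 3L that were each 50 kb or longer. The longest ran from 19808745 to 19926673 (117929 bp), followed by 1489155 to 1583297 (94143 bp), 12613847 to 12700443 (86597 bp), 14107155 to 14184825 (77671 bp) and 13989291 to 14058291 (69001 bp). These 5 all lay distal of 22 Mb, a part that makes up 22 of the 24.5 Mb of the arm. None of the 17 began between 22 and 23 Mb, and 4 began beyond 23 Mb. These parts hold 100 and 154 full windows of 10 kb, against 2200 distal of 22 Mb. The distal tip was also without a region, with the earliest starting at 59472 in the combined list, 59689 in replicate 1 and 61069 in replicate 2.

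The score rank of the regions also varied along the arm. A score percentile is used here as the place of a region's score among all regions of its own list, from 0 for the lowest to 100 for the highest, because the scale of the scores is not named. From 0 to 4 Mb the median percentile was 50.2 in replicate 1 and 53.7 in replicate 2. It was 45.4 and 45.1 from 4 to 14 Mb, 37.0 and 36.3 from 14 to 21 Mb, and 45.3 and 37.1 from 21 to 22 Mb, stretches that were chosen after seeing the data. Covered shares of the same stretches were 31.0%, 29.7%, 26.8% and 35.2% in replicate 1, and 24.3%, 23.9%, 20.8% and 27.6% in replicate 2, so the last stretch before 22 Mb was higher again in coverage in both replicates and in score rank mainly in replicate 1. Single 1 Mb windows departed from this order, among them the most distal, where the median percentile was 40.6 in replicate 1 and 62.3 in replicate 2. Over the 22 windows of 1 Mb distal of 22 Mb, the median percentile of the replicates correlated with a rho of 0.593, less closely than their covered shares (0.946). Between covered share and median percentile, those windows gave a rho of 0.111 for replicate 1, 0.139 for replicate 2 and 0.310 for the combined list. In the full 100 kb windows that held regions, the same rho was 0.344 in replicate 1 (242 windows) and 0.171 in replicate 2 (240 windows). Within 3L, wider regions had higher scores (rho of 0.708 across regions in replicate 1 and 0.656 in replicate 2).

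**Figure D2:**
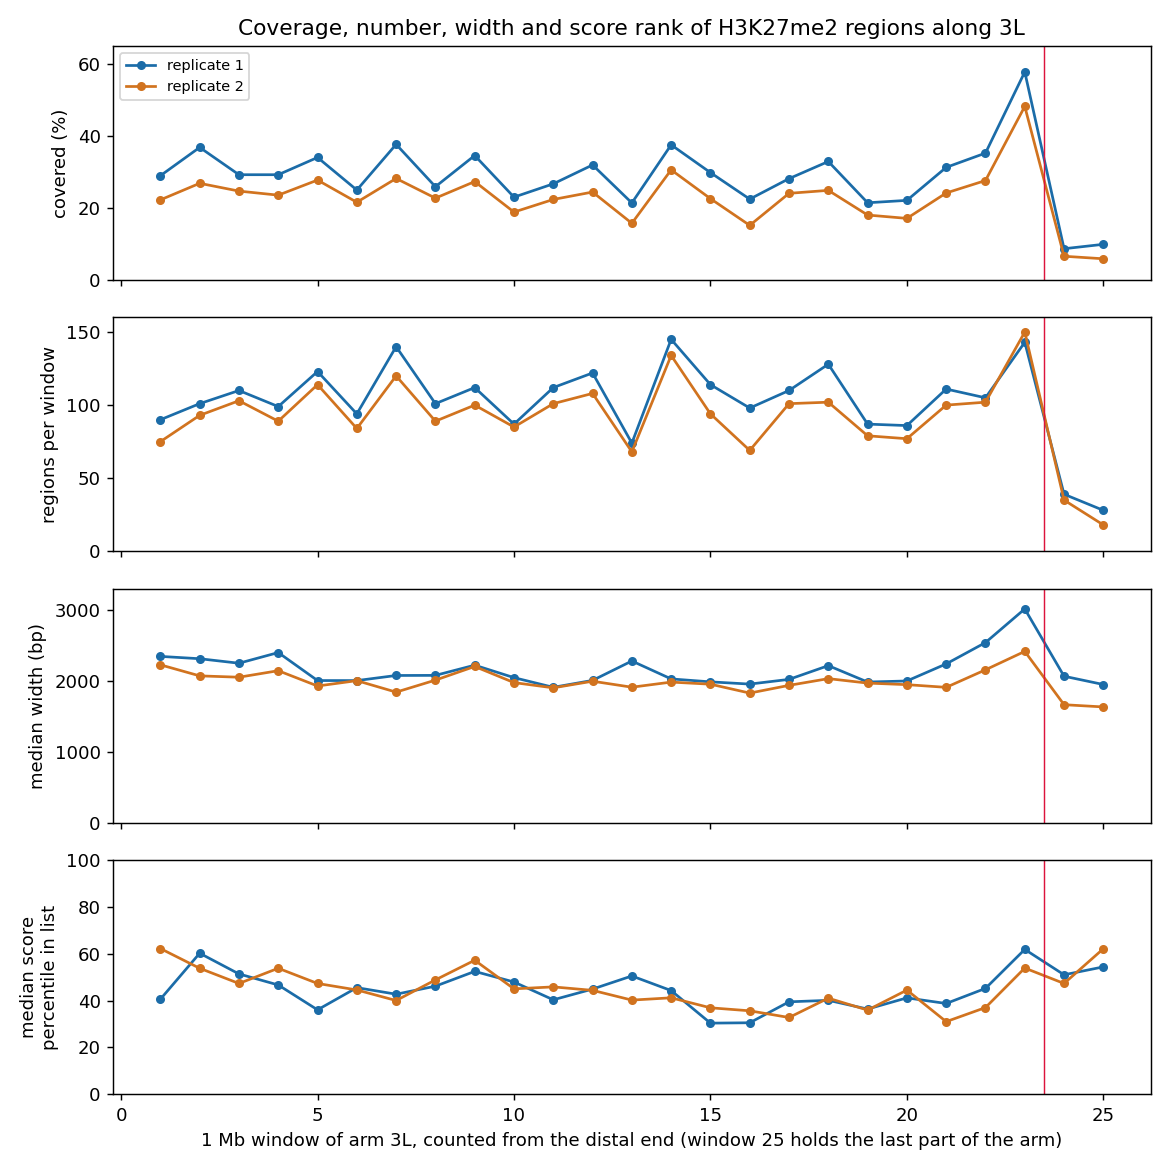
Covered percent, number of regions, median width in bp and median score percentile for each 1 Mb window of 3L in replicate 1 (blue) and replicate 2 (orange), with the red line at the step. Coverage and median width peak in the window before the line and fall in the window after it, where the median score percentile is 51.1 and 47.4.

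From 22 to 23 Mb the arm carried its densest H3K27me2 coverage. Replicate 1 had 57.8% of this megabase covered, replicate 2 had 48.2% and the combined list had 71.6%. The window was already known for this high share from an earlier reading of the same lists, so its values are a description. It held 143 and 150 regions in the replicates, against 107 and 94.9 per Mb distal of it. In the combined list the count was lower here, at 113 against 138 per Mb. The replicate regions were also wider, with medians of 3018 bp and 2418.5 bp against 2084 bp and 2004 bp. They were more closely spaced, with median gaps of 1130 bp and 1633 bp against 2689 bp and 3372 bp. Median score percentiles were 61.9 and 54.0, against 43.1 and 43.5 distal of it. Among regions of similar width, replicate 1 was not higher here. Its medians were 12.2 against 17.3 up to 1600 bp, 17.8 against 21.2 from 1601 to 2000 bp, and 55.4 against 57.1 from 2001 to 3000 bp. In replicate 2 the same classes had 24.6 against 17.9, 25.9 against 25.7, and 68.2 against 60.05. These classes held 12, 17 and 41 regions of the megabase in replicate 1, and 30, 20 and 41 in replicate 2. Of the arm's regions of at least 10 kb, 7 of 27 in replicate 1 and 3 of 7 in replicate 2 lay here.

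The dense stretch was longer than the megabase that contains its peak. From 21.6 to 23 Mb, 14 neighbouring windows of 100 kb each lay at or above the arm's median share, in each of the 3 lists separately. The next longest such runs were 8 windows in replicate 1 and 9 in each of the other lists. The run of 14 includes the megabase already known for its high share, so its length is a description. Covered shares from 21.6 to 22.0 Mb were 50.2%, 44.0%, 50.1% and 49.7% in successive windows of replicate 1, and 27.3%, 35.0%, 42.7% and 38.2% in replicate 2. They were 63.4%, 58.8%, 48.9% and 56.1% in replicate 1 from 22.0 to 22.4 Mb, and 52.3%, 54.6%, 45.0% and 50.9% in replicate 2.

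The peak lay from 22.4 to 22.5 Mb, where 90.2% of the window was covered in replicate 1 and 83.3% in replicate 2. Among the 1189 full windows of the 5 major arms this was the highest in each replicate, a rank that is also a description. The next in each was 2.4 to 2.5 Mb of arm 2R, with 83.3% and 79.0%. The 3L window was made of 13 regions in replicate 1, between 2845 and 19913 bp wide, and 17 regions in replicate 2, between 1369 and 13910 bp wide. Their median score percentiles were 90.02 and 72.5, and 12 of the 13 and 14 of the 17 scored above the median of their list. The widest replicate 1 region of the arm was among them, from 22463414 to 22483326, and 92.1% of it was covered in replicate 2. With regions less than 1 kb apart joined, the longest chain of replicate 1 on 3L spanned 65269 bp from 22459300 to 22524568 and was 94.4% covered by 10 regions. The longest in replicate 2 spanned 32196 bp from 22423868 to 22456063 and joined 7 regions.

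On the proximal side the coverage fell in stages. In replicate 1 the windows from 22.5 to 23 Mb had 74.2%, 65.7%, 39.8%, 50.2% and 30.5%, and in replicate 2 they had 53.2%, 38.7%, 35.3%, 39.7% and 29.0%. The replicates differed most from 22.6 to 22.7 Mb within this megabase, by 27.04 percentage points. From 23 to 23.5 Mb the shares were 7.27%, 1.45%, 9.87%, 3.70% and 5.44% in replicate 1, and 6.60%, 0%, 7.18%, 1.67% and 9.74% in replicate 2. From 23.5 to 24 Mb they were 0%, 3.59%, 10.6%, 26.7% and 17.6% in replicate 1, and 1.42%, 1.60%, 2.33%, 19.0% and 15.7% in replicate 2. From 24 to 24.5 Mb they were 7.86%, 9.93%, 7.01%, 13.0% and 7.56% in replicate 1, and 0%, 13.5%, 1.54%, 5.88% and 4.50% in replicate 2, and the short window at the end of the arm had 18.7% and 14.3%. No window beyond 23 Mb reached the lowest window of the megabase before it in the same replicate.

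Between the megabases on either side of 23 Mb the covered share fell from 53.0% ± 6.77 to 7.58% ± 1.48, a difference of 49.1 points in replicate 1 and 41.7 in replicate 2. This was the largest change among 112 neighbouring pairs of 1 Mb windows on the 5 major arms. The rise into 22 to 23 Mb, by 22.6 and 20.6 points, was the second largest. Close behind was a rise at 2 Mb of 2R, by 21.1 and 18.9 points. Arm 2L had a fall at 21 Mb, by 16.8 and 14.3 points. Both 3L changes border the megabase already known from these lists for its high share, so their ranks are a description. Resolved into 100 kb windows, the fall at 23 Mb was 23.2 points in replicate 1 and 22.4 in replicate 2. That size was not unusual on the arm, where 15 of the 244 neighbouring pairs fell by more. What followed was longer than elsewhere, since all 15 full windows from 23 to 24.5 Mb lay below the arm's median share in each of the 3 lists. The longest run below the median distal of there was 8 windows in each replicate and 7 in the combined list. The run of 15 starts at the border of the megabase already known, so its length is a description too. The steepest single fall from 22 to 24 Mb was instead at 22.5 Mb, with 16.0 points in replicate 1 and 30.1 in replicate 2. It was at 22.7 Mb in replicate 1 alone (25.9 points) and at 22.25 Mb with windows of 50 kb (67.8 points), so its place depended on the replicate and the window.

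**Figure D3:**
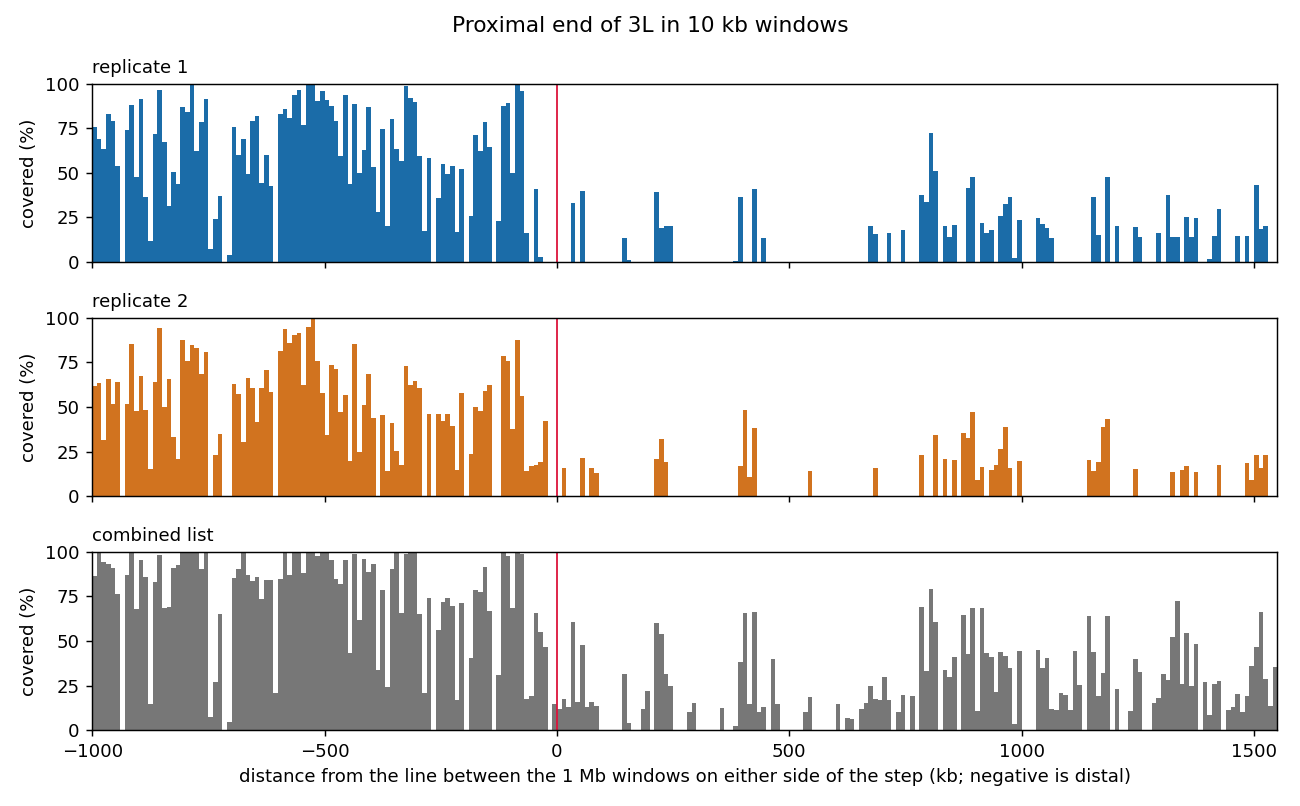
Percent of each 10 kb window covered in replicate 1, replicate 2 and the combined list, by distance in kb from the line between the 22 to 23 Mb and 23 to 24 Mb windows, with negative distances distal. The last window of at least 50% in both replicates is at 22.92 to 22.93 Mb, before the line, and beyond the line 2 windows of replicate 1, 0 of replicate 2 and 17 of the combined list reach 50%.

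Windows of 10 kb showed where dense coverage shared by the replicates ended. The window 22.92 to 22.93 Mb was covered to 96.1% in replicate 1 and 55.9% in replicate 2, and no later window had at least 50% in both. Taken list by list, the last window of at least 50% was the same one in replicate 2, but 23.81 to 23.82 Mb (51.0%) in replicate 1 and 24.51 to 24.52 Mb (66.0%) in the combined list. Beyond 23 Mb, replicate 1 had 2 such windows, replicate 2 had 0 and the combined list had 17. The region that held the end of this window stopped at 22931613 (replicate 1), 22931420 (replicate 2) and 22931734 (combined list), within 314 bp of each other. The next region began 24311 bp further on in replicate 1 and 15847 bp further on in replicate 2. In the 100 kb before this edge, 65.2% was covered in replicate 1 and 50.5% in replicate 2, against 4.37% and 11.1% after it over the same length. The edge was located from these values and the ends were read at 1 shared window, so their closeness and the contrast across them are a description. A comparable short drop lay inside the dense stretch, where the 50 kb windows on either side of 22.25 Mb had 83.2% and 14.5% in replicate 1 and 78.4% and 11.5% in replicate 2, and coverage returned from 22.3 Mb on.

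From 23 Mb to the end of the arm the replicate regions were few and far apart. This stretch held 67 regions in replicate 1 and 53 in replicate 2, covering 9.05% and 6.28% of it. Of its 154 full windows of 10 kb, 61.7% in replicate 1 and 71.4% in replicate 2 had no covered base, against 27.2% and 33.5% of those distal of 22 Mb. Median gaps were 9569 bp and 10595 bp. Against 47.4% covered and a median gap of 1255 bp distal of 22 Mb, the combined list had 20.7% and 4032 bp in its 154 regions beyond 23 Mb. Replicate 1 had its longest uncalled stretch of the arm here, 227644 bp from 23443301 to 23670944, although the longest of replicate 2 (218937 bp from 18225229 to 18444165) lay distal of 22 Mb. The scaffold 3LHet had similar values, with 11.7% and 8.13% covered and median gaps of 7459.5 bp and 9972.5 bp. Unsequenced or repeated bases count in these lengths and were not measured here, so a low share and a stretch to which reads could not be mapped cannot be told apart.

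**Figure D4:**
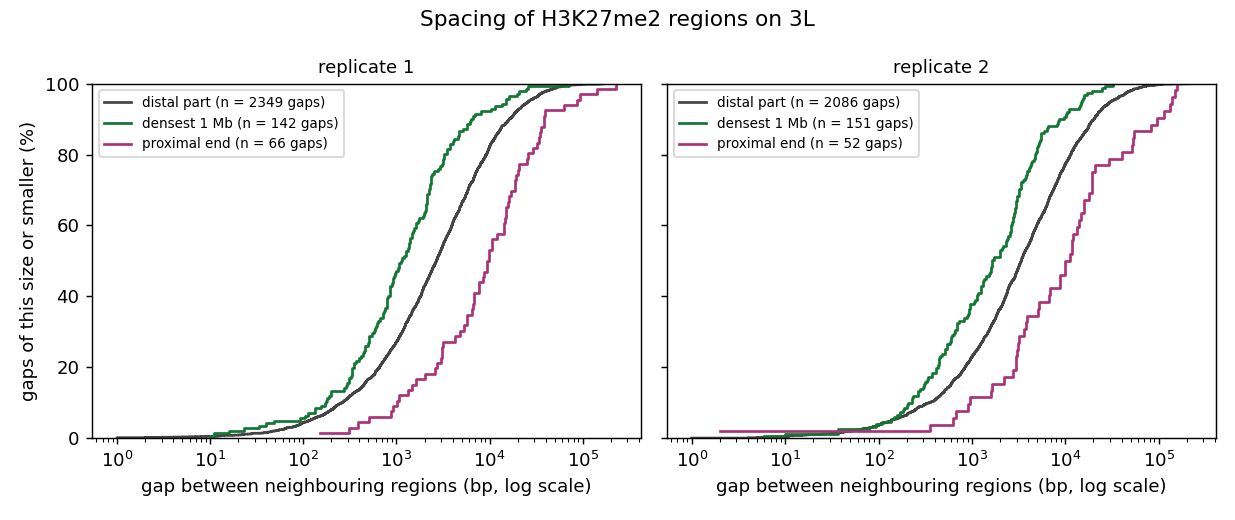
Cumulative percent of the gaps between neighbouring 3L regions against gap length in bp on a log scale, for the distal part (0 to 22 Mb), the densest megabase (22 to 23 Mb) and the proximal end (23 Mb to the end) in each replicate. Median gaps are 2689, 1130 and 9569 bp in replicate 1 and 3372, 1633 and 10595 bp in replicate 2.

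Score ranks of the regions beyond 23 Mb were above those distal of 22 Mb in the replicates. Their median percentiles were 54.4 in replicate 1 and 56.6 in replicate 2, against 43.1 and 43.5. They were narrower mainly in replicate 2, with median widths of 2022 and 1666 bp against 2084 and 2004 bp. In the combined list the median percentile was 48.1 against 43.0, but from 23 to 24 Mb alone it was 36.8, below the distal value. Among replicate regions of at most 1600 bp the difference was wider, with median percentiles of 43.3 (19 regions) and 50.8 (23 regions) against 17.3 and 17.9. From 1601 to 2000 bp they were 26.0 (12 regions) and 46.2 (16 regions), against 21.2 and 25.7, so replicate 1 differed little in this class. Between 2001 and 3000 bp the medians were 72.3 (30 regions) and 70.2 (11 regions), against 57.1 and 60.05. In replicate 1 no region beyond 23 Mb was among the 20 highest-scoring of the arm, and in replicate 2 there were 3. Beyond 23 Mb lay 2.62% of the arm's regions in replicate 1 and 2.31% in replicate 2. In the combined list 9 of the 20 highest-scoring 3L regions lay beyond 23 Mb, which held 4.66% of its regions.

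The 5 highest-scoring 3L regions of the combined list were narrow and had no covered base in either replicate. They spanned 1013 bp from 23660828 (score 3.30), 1001 bp from 22796810 (2.63), 1015 bp from 24086754 (2.30), 1249 bp from 23353836 (2.04) and 1001 bp from 20325330 (1.63), against a median score of 0.413 on 3L. The narrowest 3L region of either replicate measured 1301 bp, which is more than each of these widths.

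Of the 10 widest regions of the combined list on 3L, 3 lay from 22 to 23 Mb and none beyond 23 Mb. That megabase held 113 of the 3303 combined regions of the arm. The 3 were 50979 bp from 22185070 to 22236048, 34137 bp from 22423802 to 22457938 and 21029 bp from 22401502 to 22422530. The other 7 were 31151 bp from 4867876, 25021 bp from 1689944, 24931 bp from 3568882, 23861 bp from 1270998, 22167 bp from 2601702, 21811 bp from 10892660 and 21305 bp from 21375608. Replicate 1 covered 75.8% to 99.5% of each of these 10, and replicate 2 covered 54.0% to 95.5%. In the replicates themselves, the second widest region of replicate 1 (18939 bp from 1121704) and the widest of replicate 2 (18039 bp from 1122214) were the same domain, at score percentiles 97.6 and 98.4. The others among the 5 widest of replicate 1 began at 1697163, 11967410 and 8889242, and of replicate 2 at 659162, 22467142, 22212776 and 22411555.

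Of the 3L regions, 69.4% in replicate 1 overlapped a replicate 2 region by at least 1 bp, and 83.2% in replicate 2 overlapped a replicate 1 region. The whole lists had 68.8% and 82.8%, so the arm as a whole was near the background. Along the arm the shares rose with the coverage. They were 68.8% and 82.9% distal of 22 Mb, 87.4% and 94.7% from 22 to 23 Mb, and 52.2% and 62.3% beyond 23 Mb, where 35 of 67 and 33 of 53 regions were shared. A larger covered share also leaves more sequence in which an overlap can fall, and the part this played was not tested. With an overlap of 50% of each region required, the shares were closer together, at 49.0% and 55.1% distal of 22 Mb, 58.0% and 55.3% from 22 to 23 Mb and 44.8% and 56.6% beyond it.

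The combined list repeated this pattern. Of its 3L regions 42.8% overlapped both replicates, against 41.1% of the whole list. The share was 70.8% of 113 regions from 22 to 23 Mb and 20.8% of 154 regions beyond 23 Mb. There 47.4% overlapped neither, against 29.0% over the whole arm. Those overlapping neither beyond 23 Mb had a median width of 1285 bp, while the narrowest 3L region of either replicate measured 1301 bp. The part this width floor played was not tested. The widest regions called in replicate 1 alone spanned 7608 bp from 12362757, 6561 bp from 2830241 and 5940 bp from 3029030. Those called in replicate 2 alone spanned 3882 bp from 7881594, 3478 bp from 3501643 and 3448 bp from 14323239. All 6 lay distal of 22 Mb, as did 2349 of the 2559 regions of replicate 1 and 2087 of the 2290 of replicate 2.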

How the data were processed

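The authors deposited 3 lists of enriched regions with a score for each region. Per the file headers, the build is FlyBase release 5, and the deposited score has no named scale, so scores were compared only as percentiles within a list. The submitters' processing notes list Bowtie 0.12.7. For the region caller, its threshold and the pooling of replicates, details were not given in the sources used here. Per the labels' protocols, crosslinking used 1.8% formaldehyde and the antibody incubation lasted 15 h. Each input is labelled as serving the ChIP sample with the other number, and inputs entered no comparison. Whether each ChIP sample had its own embryo collection is unstated, so their spread may be technical only.

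Covered share is the union of regions over the window or arm length. Regions and gaps were assigned to windows and stretches by their midpoints. Named regions followed a rule: the 10 widest and 5 highest-scoring of the combined list, the 5 widest of each replicate, the 3 widest called in 1 replicate alone, the 5 longest uncalled stretches, every 100 kb window from 22 Mb on, and the 5 highest and 5 lowest windows distal of it. The members, lists and windows were chosen with earlier results of these data known. The planned naming of genes was not run, because the gene table is of release 6. Alternatives were a median-score threshold, equal numbers of regions, merging across gaps under 1 kb, the combined list, other windows, 50% reciprocal overlap and each replicate alone. Interval functions were tested on simulated data against base-by-base counts. Scripts ran in Python 3.11.15 with pandas 2.3.3, numpy 2.4.6 and matplotlib 3.10.9.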

Additional observations from a re-analysis of the deposited data

How the results depend on the processing

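The fall from 22 to 23 Mb to 23 to 24 Mb kept its direction in every alternative run for it. It was 45.4 percentage points as the mean of the replicates, 36.9 when regions under their list's median score were dropped, 53.0 in the combined list, and 41.7 to 49.1 with either replicate left out. The covered share of 3L (26.2%) was 15.4% with the median-score threshold, which removes regions by construction, 46.7% in the combined list and 23.1% to 29.2% with a replicate left out. The steepest fall between neighbouring windows (23.03 points at 22.5 Mb) was 34.6 points with the median-score threshold, 39.2 points at 22.95 Mb with windows shifted by 50 kb, 67.8 points at 22.25 Mb with windows of 50 kb, and 25.9 to 30.1 with a replicate left out. It moved to 23 Mb with merging and in the combined list. The difference of 3L from 2L and 3R (0.0322 points) was 0.478 with the median-score threshold, reversed to -0.529 in the combined list, and ran from -0.0759 (without replicate 2, reversed) to 0.140 with a replicate left out. The share of regions in both replicates (76.3%) was 62.98% with the median-score threshold and 52.3% with 50% reciprocal overlap, and could not be had with a replicate left out or in the combined list. The difference in median score percentile between 22 to 23 Mb and the arm distal of it (14.7) was 2.45 with the median-score threshold, which narrows the range of scores by construction, 26.7 in the combined list and 10.5 to 18.8 with a replicate left out. The median gap (2926 bp) was 8923.5 bp with that threshold, 4848.5 bp with merging, which removes short gaps by construction, 1305 bp in the combined list and 2612 to 3240 bp with a replicate left out. The cause of the other changes was not tested. The fall at 23 Mb between 100 kb windows, added after seeing the data, was 22.8 points. With the median-score threshold it was 11.4, as the mean of 17.7 in replicate 1 and 5.13 in replicate 2. No paired analysis was possible because only the ChIP group has region lists, so no other group shares its replicate numbers in a test. A stretch without a region may hold signal too weak for the unknown depth.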

Other observations

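Distances between region edges in the replicates were taken only from matched regions, 49.4% of those on 3L in replicate 1 and 55.2% in replicate 2. Among 1263 pairs that overlapped by at least 50% of each region, the median distance between their edges was 267 bp, with quartiles of 103 and 590 bp. The medians were 261 bp distal of 22 Mb, 391 bp from 22 to 23 Mb (83 pairs) and 312 bp beyond 23 Mb (30 pairs). The overlap rule itself limits these distances, most tightly in narrow regions, so their small size is a description. Score ranks of the same pairs differed by a median of 16.3 percentile points.

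The last stretch of the arm, from 24 Mb to its end, had 28 regions in replicate 1 and 18 in replicate 2, which covered 9.85% and 5.83% of it. Their median score percentiles were 54.5 and 62.2, and the combined list covered 24.5%. The last region of each replicate ended 20860 and 20801 bp before the end of the scaffold, and the last of the combined list 759 bp before it.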
